A study of Mus musculus with 12 samples.

Results

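ADAM proteins carry a disintegrin and a metalloprotease domain and sit in the cell membrane. Some, such as ADAM10 and ADAM17, are sheddases that cut growth factors, cytokines and Notch proteins off the surface of most cell types. In the mouse many other members are made in the testis, where several are placed on the sperm surface, and males that lack ADAM2 or ADAM3 have sperm that do not pass into the oviduct. Such genes are transcribed in spermatocytes or spermatids long before the sperm is formed, which makes their starts a place to look at transcription during meiotic prophase I.

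The genes described here are all autosomal protein-coding genes of the GENCODE M21 annotation (mouse build mm10) whose symbol is Adam followed by a number and at most 1 letter, which leaves out the secreted Adamts proteases. The rule gave 33 of 20807 genes. From general knowledge of where each gene is expressed, which no deposited file gives, 20 were treated as testis-restricted, 4 as broadly used (Adam9, Adam10, Adam15 and Adam17) and 9 as limited to certain somatic tissues (Adam7, Adam8, Adam11, Adam12, Adam19, Adam22, Adam23, Adam28 and Adam33).

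The study measured nascent RNA by leChRO-seq, a run-on assay on chromatin in which engaged RNA polymerase labels the RNA it is making. All cells came from the testes of adult wild-type (WT) mice with no treatment, and were separated by size and density (STAPUT) into 3 fractions, leptonema/zygonema, pachynema and diplonema, with 4 libraries each and 12 in all. The fractions are enriched and not pure. The study names earlier or later germ cells, and above all elongated spermatids, as what they may also hold. For each substage 1 list of peaks called by dREG was deposited. dREG finds the paired, divergent transcription that marks active promoters and enhancers, and gives each peak a score without a unit. Each substage is 1 list, merged over its libraries by its name, without replicate spread, and no test between substages was possible.

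A gene was counted as called when a dREG peak had its nearest edge under 1000 bp from any annotated transcription start site (TSS) of that gene. Each called gene was described by its highest such score. The leptonema/zygonema list held 71107 peaks, the pachynema list 68352 and the diplonema list 38603. The median of these highest scores over all called genes was 1.05, 1.03 and 0.839 in the same order. Whether scores share 1 scale between lists was not tested. Each gene was therefore also given a rank percentile, in which 100 is the highest score among the called autosomal protein-coding genes of the same list. Read depth is not in the lists. Whether the score follows the amount of transcription was not tested, so scores and ranks are not given here as transcription levels. With nuclear run-on assays the study found more transcription in pachynema than in leptonema/zygonema or diplonema. The median of the highest scores was not higher in pachynema than in leptonema/zygonema. Fewer cells transcribing a gene also cannot be told apart from less transcription per cell.

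The family differs first in the DNA at its starts. The 250 bases upstream of the start are shown for Adam21, a gene with all its coding sequence in 1 exon and transcribed in the testis, and for Adam17, the broadly used tumour necrosis factor sheddase, because these genes had nearly the same score in leptonema/zygonema (1.35 and 1.34) on DNA of opposite make-up. Capitals mark each CpG. Both are on the minus strand of chromosome 12 (RefSeq, GRCm38.p6), at chr12:81568475-81568724 and chr12:21373633-21373882, and are written 5′ to 3′ up to the base before the start.
Adam21: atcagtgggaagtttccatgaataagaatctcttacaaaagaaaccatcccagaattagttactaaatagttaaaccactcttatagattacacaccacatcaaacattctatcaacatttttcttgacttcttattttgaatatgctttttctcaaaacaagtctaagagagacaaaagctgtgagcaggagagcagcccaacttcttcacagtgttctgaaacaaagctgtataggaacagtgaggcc
Adam17: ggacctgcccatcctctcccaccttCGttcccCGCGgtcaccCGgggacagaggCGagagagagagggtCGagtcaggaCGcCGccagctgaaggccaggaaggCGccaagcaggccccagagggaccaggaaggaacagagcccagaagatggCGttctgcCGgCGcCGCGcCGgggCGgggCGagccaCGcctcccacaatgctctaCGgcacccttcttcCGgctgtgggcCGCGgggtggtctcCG
The Adam21 stretch held 0 CpGs at 36.0% GC, and that of Adam17 held 23 at 70.4% GC. The start of each gene was covered by a peak in every list.

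The next 3 sequences are shown because Adam20 and Adam25 have nearly the same promoter and differ in score, while Adam26b, from another row of genes on chromosome 8, carries other motifs. Capitals mark matches to GCNGTT (a short form of the motif bound by MYB proteins) in Adam20 and Adam25, and to CNGTTG (another MYB form) and GTTGCC (a short part of the motif bound by RFX proteins) in Adam26b. Adam20 and Adam25 are on the plus strand, at chr8:40793023-40793272 and chr8:40751958-40752207, and Adam26b is on the minus strand, at chr8:43528138-43528387.
Adam20: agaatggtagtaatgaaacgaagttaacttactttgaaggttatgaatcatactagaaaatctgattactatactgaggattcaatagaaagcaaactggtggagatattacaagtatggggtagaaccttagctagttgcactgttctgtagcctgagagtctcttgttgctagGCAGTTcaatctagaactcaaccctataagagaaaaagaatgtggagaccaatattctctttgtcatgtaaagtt
Adam25: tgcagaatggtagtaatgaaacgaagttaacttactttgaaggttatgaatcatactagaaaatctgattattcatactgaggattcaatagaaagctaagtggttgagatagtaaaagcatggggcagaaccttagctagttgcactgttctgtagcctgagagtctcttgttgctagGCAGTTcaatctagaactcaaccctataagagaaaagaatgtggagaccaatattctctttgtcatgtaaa
Adam26b: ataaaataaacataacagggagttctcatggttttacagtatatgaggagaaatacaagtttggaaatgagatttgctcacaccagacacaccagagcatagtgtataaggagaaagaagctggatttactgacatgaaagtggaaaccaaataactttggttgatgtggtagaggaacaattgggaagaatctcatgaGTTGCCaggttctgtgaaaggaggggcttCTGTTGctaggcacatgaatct
The match lay 75 bases before the start in Adam20 and 71 in Adam25, and those of Adam26b lay 22 and 51 bases before it. Over the 300 bases around the start, Adam20 and Adam25 were 93.3% identical by edit distance, and Adam26b was 51% identical to Adam20 and 53% to Adam25. The median over all 105 pairs of testis-restricted genes with their coding sequence in 1 exon was 46%. These windows follow the GENCODE start, which for Adam26b differs from the RefSeq start of the printed stretch. The score at Adam20 was 1.20 in leptonema/zygonema, then 1.09 in pachynema and 0.974 in diplonema, and that at Adam25 was 1.09, 0.803 and 0.572. Adam20 had the higher score in each list. The study gives its depth in uniquely mapped reads, and how reads that fit both copies were treated in the peak calls is not given in the sources used here.

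Peaks were called at most ADAM gene starts in every substage. In leptonema/zygonema 28 of the 33 genes were called, beside 60.7% of all autosomal protein-coding genes. In pachynema it was 28, beside 61.2%, and in diplonema 24, beside 52.3%. Of the family, 23 genes were called in all 3 lists (50.2% of all genes were) and 4 in none (35.2%), namely Adam7, Adam15, Adam28 and Adam33.

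The testis-restricted genes counted 19, 20 and 19 of 20 calls in leptonema/zygonema, pachynema and diplonema. Adam18 was the gene without a call in leptonema/zygonema and Adam34 the gene without one in diplonema. The 4 broadly used genes counted 3 in each list, with Adam15 never called. The 9 genes limited to somatic tissues counted 6, 5 and 2. The 19 Adamts genes, close relatives that work outside the cell, counted 11, 11 and 4. The somatic and Adamts counts were lowest in diplonema, which is the shortest list. With each list reduced to as many peaks as the shortest holds, the testis-restricted genes counted 15, 18 and 19, the somatic genes 3, 2 and 2 and the whole family 21, 23 and 24, beside 53.4%, 53.8% and 52.3% of all genes.

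**Figure D1:**
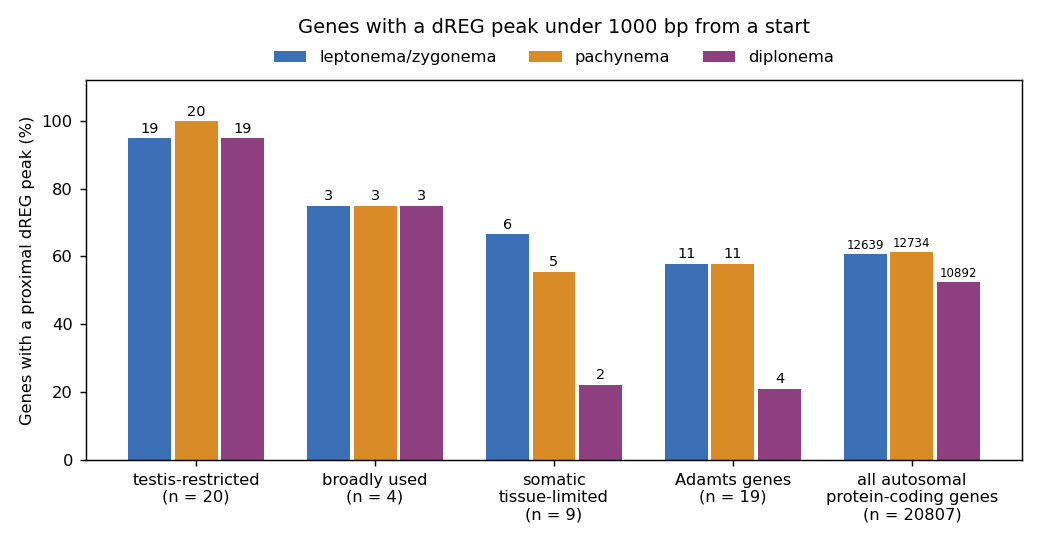
Share of genes (y axis, %) with a dREG peak under 1000 bp from a start in each gene group, with 1 bar per substage list and the number of called genes above it. The testis-restricted group stands at 95% to 100% and the somatic tissue-limited group goes from 6 to 2 of 9, while in lists of equal length they count 15, 18 and 19 of 20 and 3, 2 and 2 of 9.

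The high call rate did not mean high scores. The median rank percentile of the called testis-restricted genes was 51.4 in leptonema/zygonema, then 47.7 in pachynema and 39.9 in diplonema. With the scores of all peaks near a start summed it was 26.96, 33.9 and 24.8, and without Adam1a, whose highest peak lies at another gene, it was 38.5, 44.4 and 41.1, so it held no steady order of substages. That median covers genes of opposite course. When the group was divided by gene structure, a division made after the values were seen, 15 genes had all their coding sequence in 1 exon (Adam1a, Adam1b, Adam4, Adam6a, Adam6b, Adam20, Adam21, Adam24, Adam25, Adam26a, Adam26b, Adam29, Adam30, Adam34 and Adam39) and 5 had it in 19 to 22 exons (Adam2, Adam3, Adam5, Adam18 and Adam32).

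Of the 5 genes with several coding exons, 4 ranked low early and high late, and Adam18 did not. The median rank percentile of the called genes among the 5 was 19.6, 52.1 and 91.6 in the lists from the earliest to the latest substage. All 4 that were called in both end lists ranked higher in diplonema than in leptonema/zygonema, beside 44.1% of all genes called in both. The median difference of these 4 was 77.8 percentile points, and that of all genes was -3.23. A rank higher by over 50 points was seen in 1.74% of all genes (183 of 10498), and all 4 of these genes passed it. Adam3 was among them only through a leptonema/zygonema peak of 0.290, 909 bp from its start. With a limit of 500 bp Adam3 was not called in leptonema/zygonema.

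Adam2 encodes fertilin beta, the partner of ADAM1 and ADAM3 in complexes on sperm, and lies at chr14:66027329-66077733. Its highest score was 0.749 in leptonema/zygonema, then 1.11 in pachynema and 1.25 in diplonema, at rank percentiles 23.6, 61.2 and 97.8. The peak with that score covered the start in each list (chr14:66077471-66078010, chr14:66077391-66077980 and chr14:66077471-66078150). Its score was thus ordered from leptonema/zygonema up to diplonema although the median of all called genes was lowest in diplonema.

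Adam32, which encodes a testis ADAM of unclear role, gave the most similar course. Its scores were 0.636, 1.05 and 1.27, at rank percentiles 16.9, 52.1 and 98.4. It was the highest-ranking ADAM gene of the diplonema list, just ahead of Adam2. Peaks near its start numbered 1, 2 and 3 in the lists in order of substage.

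Adam3 encodes cyritestin, which sperm need on their surface to enter the oviduct. In leptonema/zygonema its only peak under 1000 bp from a start had a score of 0.290, at rank percentile 0.313. That peak lay 909 bp from the start, near the end of the neighbouring Adam5. A further peak inside Adam3, 1543 bp from an Adam3 start, scored 0.603. In pachynema and diplonema a peak covered the start, with scores of 0.926 and 1.17 and rank percentiles of 39.2 and 91.6. Adam3 thus had no peak on its start in the earliest list.

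Adam5, a further testis ADAM in the same row of genes, had scores of 0.730, 1.10 and 1.08. Its rank percentile was 22.4, 58.6 and 80.8, so the rank was higher in diplonema although the score was about that of pachynema. Adam18 did not share the high late rank. It had no peak within 1000 bp in leptonema/zygonema (the nearest lay 7717 bp from a start), a score of 0.728 in pachynema and 0.586 in diplonema, and rank percentiles of 24.6 and 24.7. Of all genes, 1.46% were called in pachynema and diplonema and not in leptonema/zygonema.

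**Figure D2:**
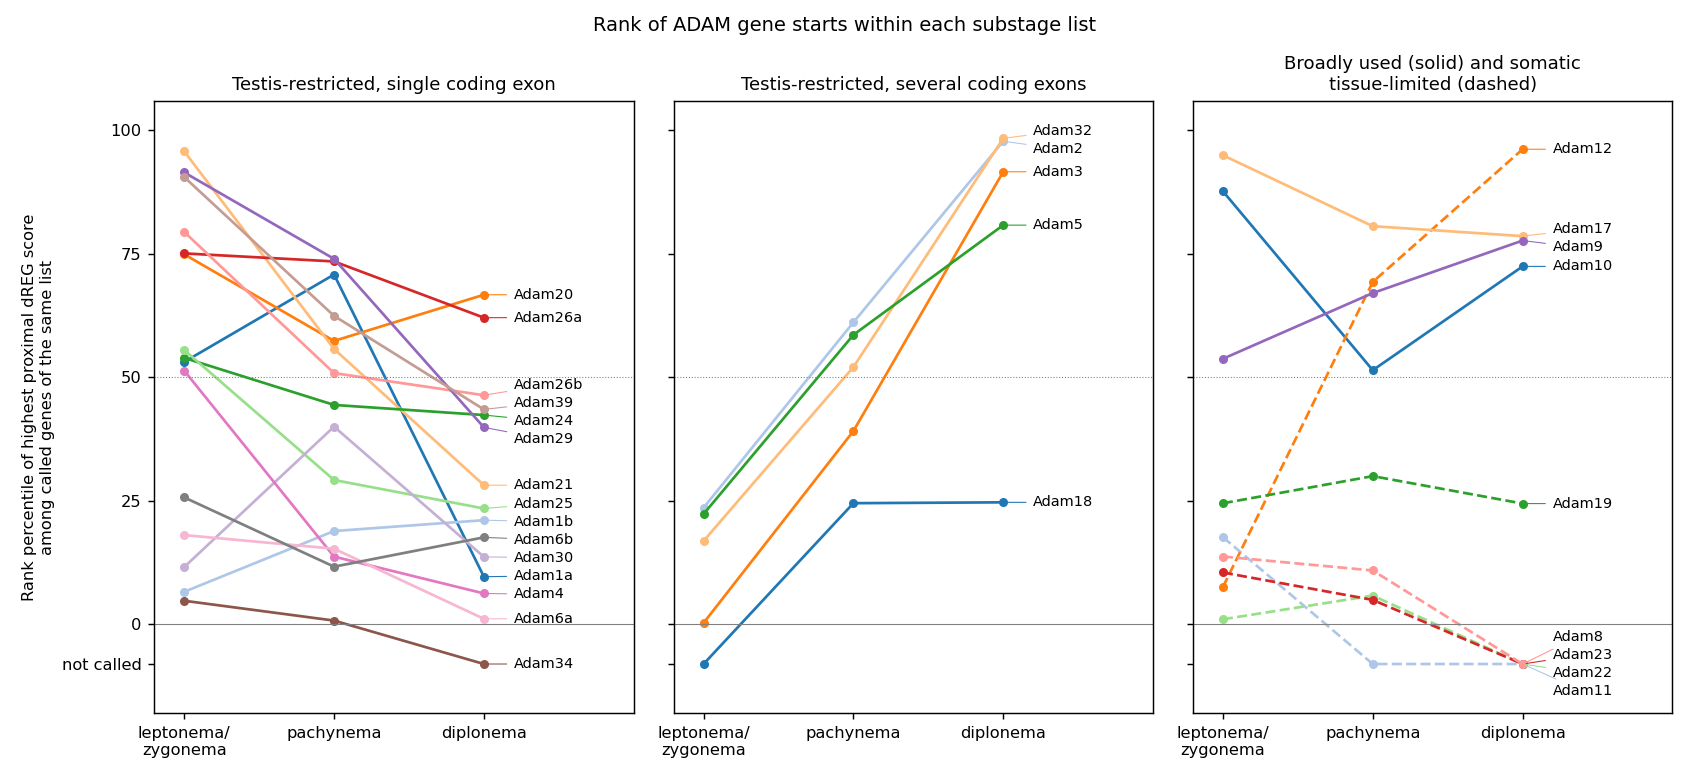
Rank percentile (y axis, 0 to 100 among called genes of the same list) of each called ADAM gene in the 3 substage lists, 1 line per gene, with genes that had no peak drawn at "not called". In the middle panel Adam2, Adam3, Adam5 and Adam32 go from under 25 in leptonema/zygonema to over 80 in diplonema, while 12 of the 14 lines called in both end lists of the left panel end lower than they began.

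The 15 genes with a single coding exon mostly took the other course. They counted 15, 15 and 14 calls. All single-coding-exon genes of the genome were called at 28.2% in leptonema/zygonema, then 28.2% in pachynema and 23.5% in diplonema. The median rank percentile of the called genes among the 15 was 54.0, 44.4 and 25.8. Of the 14 called in both end lists, 12 ranked lower in diplonema, beside 55.9% of all genes, with a median difference of -24.5 points. Only Adam21 and Adam29 passed the mark of 50 points lower, which 5.2% of all genes passed. The diplonema list is the shortest. With the lists reduced to the same number of peaks, an alternative for ranks chosen after seeing the data, 11 of 12 single-coding-exon genes ranked lower in diplonema (48.1% of all genes did), with a median difference of -28.1 points, and Adam2, Adam5 and Adam32 ranked higher by 84.8, 69.2 and 93.01 points, beside a median of 0.929 over all genes. Adam3 then had no leptonema/zygonema call. The size of the lower rank depended on using the highest score. When the scores of all peaks near a start were summed, 9 of the 14 ranked lower, the median difference was -7.60 points and the median rank percentile of the called genes was 26.9998, 25.7 and 22.7. With summed scores, Adam2, Adam3, Adam5 and Adam32 still ranked higher in diplonema, with a median difference of 50.7 points in place of 77.8. The median rank percentile of the several-exon group in diplonema was then 65.5 in place of 91.6.

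The highest ranks of the group were those of Adam21, Adam29 and Adam39 in leptonema/zygonema. Adam21 had scores of 1.35, 1.08 and 0.626 and rank percentiles of 95.8, 55.8 and 28.2, a difference of -67.6 points and the most negative in the family (-66.98 in lists of equal length). Adam29 had 1.30, 1.19 and 0.747 at rank percentiles 91.5, 74.0 and 39.9. Adam39 had 1.30, 1.12 and 0.781 at rank percentiles 90.6, 62.5 and 43.5. All 3 scores were highest in the earliest list and lowest in the latest, and the start of each gene was covered by a peak in every list.

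Adam26a and Adam26b, a pair whose promoter windows were 69.7% identical, kept closer to the middle. Adam26a had scores of 1.20, 1.18 and 0.939, and Adam26b had 1.23, 1.04 and 0.808. Their rank percentiles were 75.1, 73.5 and 62.1 for Adam26a and 79.4, 50.9 and 46.4 for Adam26b. Adam26a and Adam20, with 66.7 in diplonema, were the only single-coding-exon members above the 50th percentile there.

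Among the others, Adam4 had 1.06, 0.548 and 0.361, with its diplonema peak 436 bp away from the start. Adam25 and Adam24 had 1.09 and 1.08 in leptonema/zygonema and 0.572 and 0.770 in diplonema. The Adam6a and Adam6b genes, which lie inside the immunoglobulin heavy chain locus and whose proteins are needed for male fertility, had scores of at most 0.655 and 0.783, both in leptonema/zygonema. In diplonema the score of Adam6a was 0.290, the lowest of any ADAM gene called there. Both remained under the 26th percentile in every list. Adam6a and Adam6b, like Adam1a and Adam1b, are near-identical copies that can share reads. How such reads were treated in the peak calls is not given in the sources used here. The part this has in their scores was not tested.

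Adam1b and Adam30 were the 2 genes of this group whose rank was higher in diplonema than in leptonema/zygonema. In lists of equal length neither was called in leptonema/zygonema, and Adam6b was the gene with the higher late rank, 15.4 and 17.6. Adam1b, which encodes the sperm fertilin alpha, had 0.427, 0.639 and 0.544, with its highest rank percentile, 21.1, in diplonema. Its peak also covered a start of 4930477O15Rik in every list. Adam30 had 0.536, 0.935 and 0.453, highest in pachynema, at rank percentiles 11.6, 40.0 and 13.7. Adam34 had 0.388 and 0.298 and no call in diplonema. Within the Adam34 gene a peak at the start of the gene model Gm45488 scored 1.09, 1.16 and 0.642, above that at the start of Adam34 in the first 2 lists.

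Adam1a, the other fertilin alpha gene, needs care. Its highest peaks, with scores of 1.07, 1.17 and 0.405, covered a start of Mapkapk5, a kinase gene that begins beside the far upstream start of Adam1a. The Adam1a start next to its coding exon had a peak of 0.482 at 191 bp in leptonema/zygonema, one of 0.306 at 101 bp in pachynema and none in diplonema. Without Adam1a the median rank percentile of the single-coding-exon group was 54.8, 42.2 and 28.2. The order of the substages was the same with and without it.

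**Figure D3:**
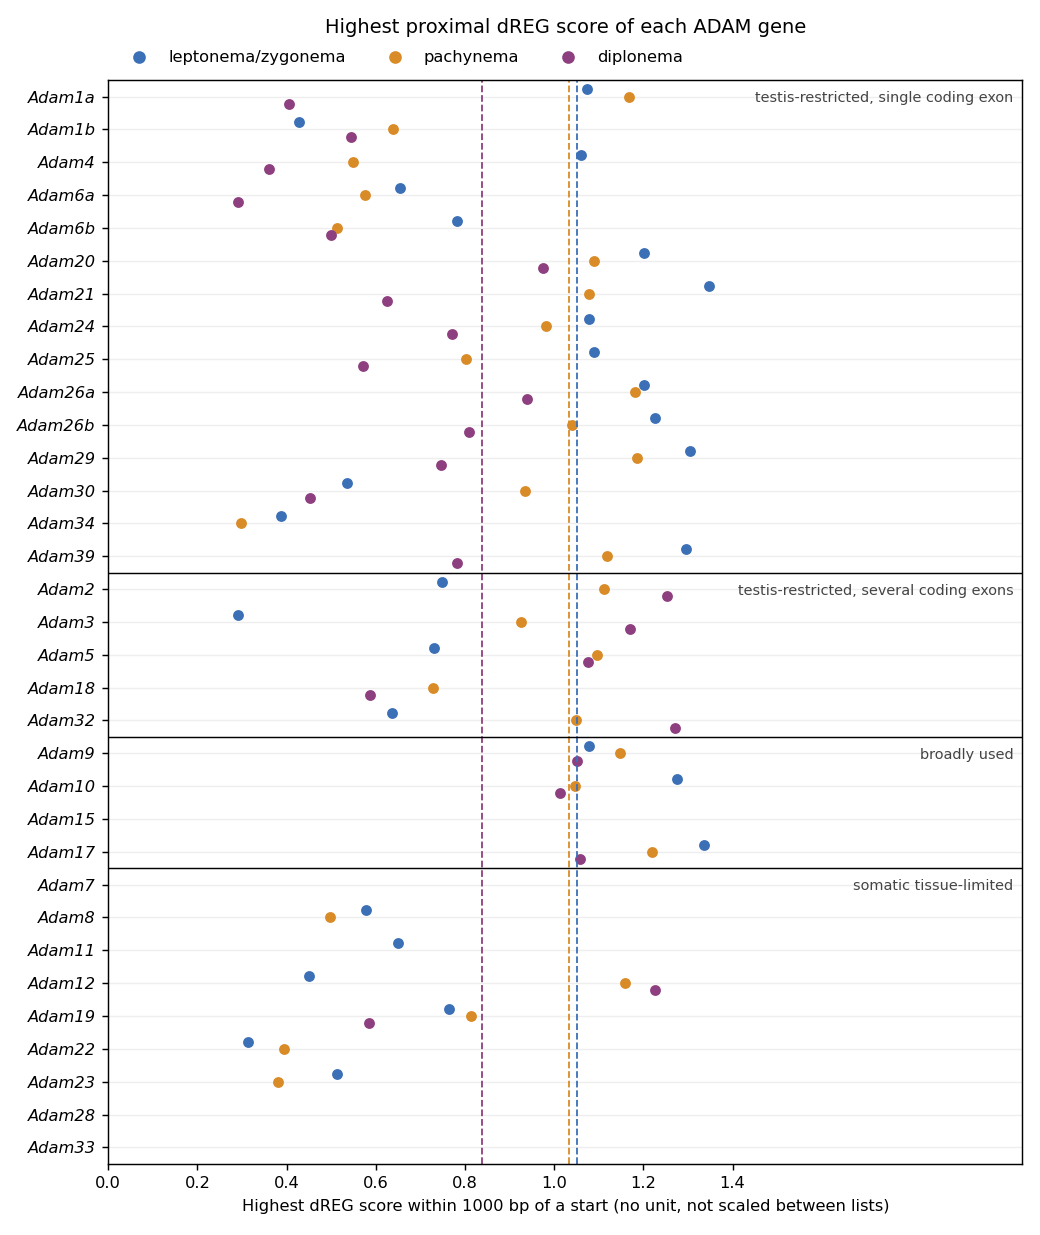
Highest dREG score (x axis, no unit) under 1000 bp from a start of each of the 33 ADAM genes (y axis), coloured by substage, with dashed lines at the median of all called genes in each list. Blue points (leptonema/zygonema) lie furthest to the right for most single-coding-exon genes, and purple points (diplonema) furthest to the right for Adam2, Adam3, Adam32 and Adam12. The scores are not scaled between lists.

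The broadly used sheddases ranked above the middle of the deposited lists in which they were called. Adam17 had scores of 1.34, 1.22 and 1.06, at rank percentiles 94.98, 80.6 and 78.6. Adam10, the main alpha-secretase and a Notch sheddase, had 1.28, 1.05 and 1.01, at 87.7, 51.5 and 72.5. Adam9 had 1.08, 1.15 and 1.05, at 53.8, 67.1 and 77.7, with a peak that also covered the start of the divergent neighbour Tm2d2. The peak of Adam17 also covered a start of the gene model Gm49586 in each list. All 3 were above the 50th percentile in all lists. In lists reduced to equal length Adam9 stood at 47.4 in leptonema/zygonema and Adam10 at 44.8 in pachynema. Adam15, a further membrane-bound ADAM, had its nearest peaks 7822, 7852 and 8882 bp from a start.

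Adam2, Adam3, Adam5 and Adam32, grouped because of their late rank, ranked below Adam9, Adam10 and Adam17 in leptonema/zygonema, where the highest of the 4 stood at 23.6 and the lowest of the sheddases at 53.8. In diplonema the lowest of the 4 stood at 80.8 and the highest of the sheddases at 78.6. The choice of these 4 genes fixes that order in diplonema, and Adam18, at 24.7 there, lay below all 3 sheddases.

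Among the genes limited to somatic tissues, Adam12 stood apart. Adam12, known from muscle and placenta, had scores of 0.450, 1.16 and 1.23 and rank percentiles of 7.59, 69.3 and 96.2. Its peak covered a start inside the gene (chr7:134224821-134225430 in diplonema), some way from the 5′ end of the gene record, and with that 5′ end alone Adam12 was not called in any list. Adam12 was the only member outside the testis-restricted group with a rank over 50 points higher in diplonema than in leptonema/zygonema.

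Adam19 had 0.764, 0.814 and 0.584, all at rank percentiles from 24.5 to 30.0. Adam23, which encodes a neural ADAM without protease activity, had 0.513, 0.381 and no call in diplonema. Adam11 was called in leptonema/zygonema only, with 0.649, a pattern of 2.84% of all genes. Adam22, another neural member, had 0.313 and 0.395 from peaks 612 and 292 bp away and no call in diplonema. Adam8, a leukocyte gene, had 0.577 and 0.498 from peaks 878 and 858 bp away that lay nearer to the start of 6430531B16Rik. The pattern of calls in leptonema/zygonema and pachynema and not diplonema, shared by Adam8, Adam22, Adam23 and Adam34, was seen in 7.45% of all genes.

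The distance of peaks from the start varied with substage. A peak covered a start of 17, 20 and 16 of the 20 testis-restricted genes in the lists in order of substage, beside 57%, 57.4% and 48.6% of all genes. In diplonema the peak of Adam1a, Adam4 and Adam6a lay beside the start, not on it, at 219, 436 and 283 bp, while all 5 several-exon testis genes had a peak on a start. In leptonema/zygonema the genes with none on a start were Adam3, at 909 bp, Adam30, at 71 bp, and Adam18, without a call. Several genes had flanking peaks on both sides of the central one. Adam2 had 4, 5 and 3 peaks within 1000 bp, and Adam3 had 1, 4 and 2.

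**Figure D4:**
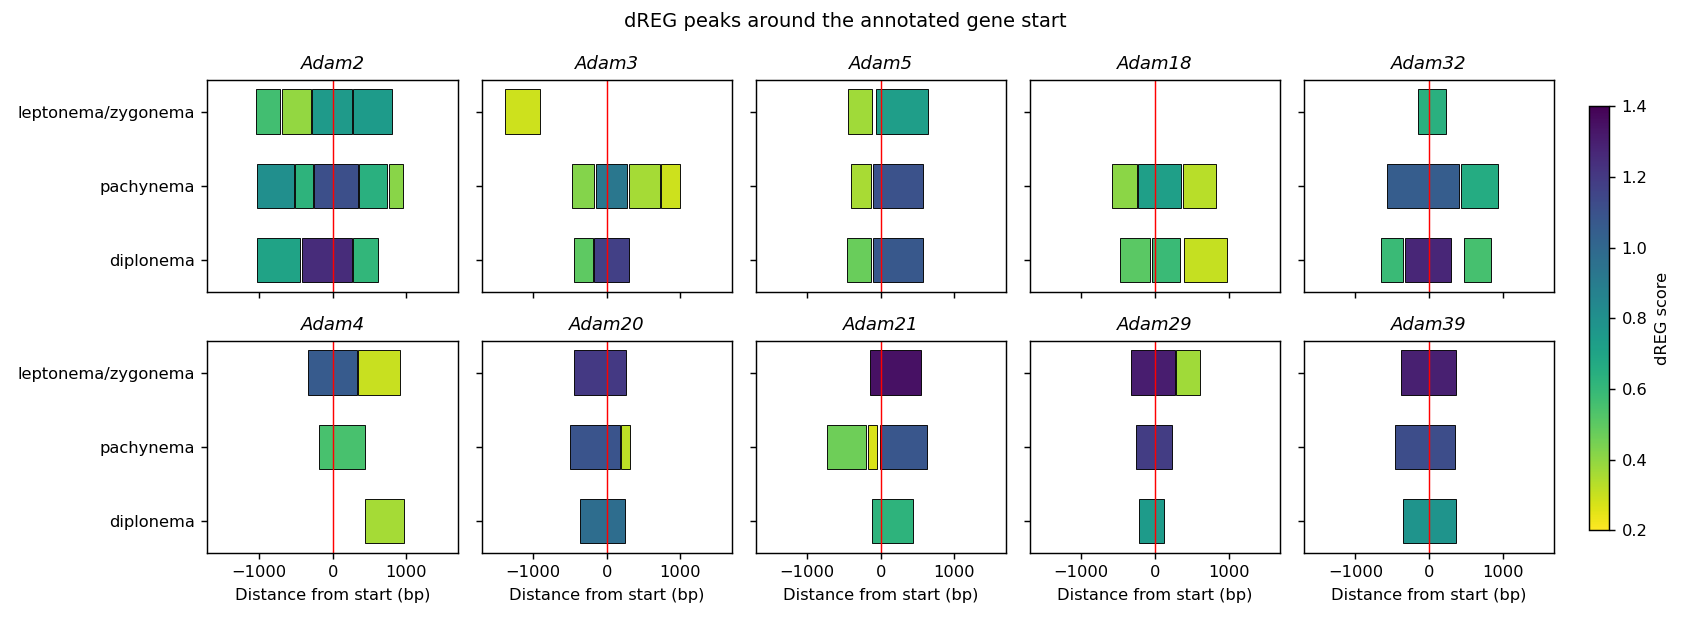
Position of dREG peaks (boxes, x axis in bp from the annotated gene start, with transcription to the right) in the 3 substage lists for the 5 testis-restricted genes with several coding exons (top) and 5 of those with a single coding exon (bottom), coloured by dREG score. In the top row the box on the start is darkest in diplonema for Adam2, Adam3 and Adam32, and in the bottom row it is darkest in leptonema/zygonema for each gene.

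Of the 33 genes, 16 lie in 5 rows or pairs of neighbouring ADAM genes, and both courses were found on chromosome 8. Adam18, Adam3, Adam5, Adam32 and Adam9 follow each other on the minus strand over 415 kb, at chr8:24602246-25016927, with no other protein-coding gene between them. This row held 14 peaks in leptonema/zygonema, then 21 in pachynema and 14 in diplonema. Of these, 6, 7 and 1 lay away from the starts of its genes. The single such peak of the diplonema list was inside Adam18, at chr8:24636051-24636750, 7797 bp from the nearest Adam18 start, and scored 0.944. Peaks at the same place scored 0.899 in pachynema and 0.549 in leptonema/zygonema. In pachynema and diplonema it had a higher score than any peak at the starts of Adam18 itself.

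The row of Adam24, Adam25, Adam20 and Adam39 spans 152 kb at chr8:40675077-40827037 and held 10, 8 and 6 peaks, of which 3, 1 and 1 were away from the starts. All 4 of its genes had their highest score in leptonema/zygonema. The Adam26b, Adam26a and Adam34 row, 190 kb long at chr8:43519762-43710049, held 6, 5 and 4 peaks. Its 3 genes also had their highest score in leptonema/zygonema. Rank percentiles, too, were highest in leptonema/zygonema for each gene of both rows. How many of all genes share this order was not counted. The median highest score of all called genes was also highest in leptonema/zygonema. Genes of a row cannot be taken as independent, since the promoter windows of Adam25 and Adam39 were 79% identical and those of Adam20 and Adam39 74.7%. Adam34 had low scores, 0.388 and 0.298, and no diplonema call. In the first row Adam3, Adam5, Adam32 and Adam9 had the higher late rank.

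CpG number differed between these groups of starts. In the 300 bases from 250 before to 50 after the 5′ end of each gene, all genes had a median of 12 CpGs. The single-coding-exon testis genes had a median of 1, with a range of 0 to 47 whose top is the shared start of Adam1a. The several-exon testis genes had 10, with a range of 9 to 16, and the broadly used genes had 30, with a range of 27 to 33. The ranges of the several-exon and broadly used groups, of 5 and 4 genes, did not overlap. The share of all genes within each range was not counted. Adam30, a single-coding-exon gene with 14 CpGs, lay within the several-exon range.

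Starts with 0 to 2 CpGs were seldom called over the genome, and the ADAM genes among them were called often. Of 4092 such genes, 19.8% were called in leptonema/zygonema, then 19.6% in pachynema and 15.5% in diplonema. The family had 14 members in this class, 13 of them testis-restricted, and 13, 13 and 12 of the 14 were called. Adam7, an epididymal gene, was the one without a call in any list. The other 13 were placed in their group for expression in the testis. Their high call rate in testis cells therefore cannot be read as a trait of their starts. Over all genes of this class called in both end lists, 69.6% ranked lower in diplonema than in leptonema/zygonema, with a median difference of -11.7 points. The lower late rank of the ADAM genes was therefore shared in direction by most called genes with few CpGs. The class with 10 to 19 CpGs, which holds Adam2, Adam5, Adam18 and Adam32, had a median difference of -2.97 points, with 55.1% of its genes lower. Adam2, Adam5 and Adam32 stood 74.2, 58.5 and 81.5 points higher.

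**Figure D5:**
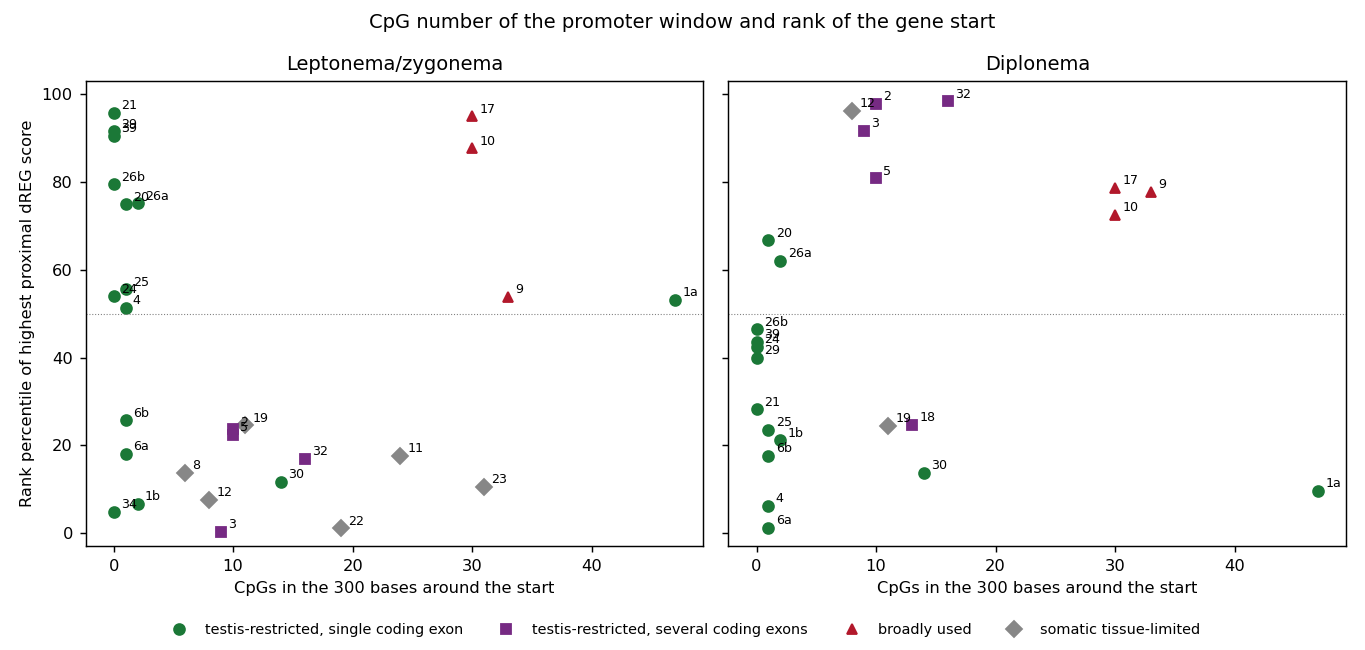
CpGs in the 300 bases around the 5′ end of the gene (x axis) against rank percentile of the highest dREG score (y axis) in leptonema/zygonema (left) and diplonema (right), 1 point per called ADAM gene, labelled by its number. The single-coding-exon testis genes with 0 to 2 CpGs reach the 95.8th percentile on the left and at most the 66.7th on the right, while Adam2, Adam3, Adam5 and Adam32 go from the lower to the upper part. The 47 CpGs of Adam1a belong to its far upstream start, which lies beside Mapkapk5, and the 8 of Adam12 to the 5′ end of the gene record, not to the start at its peak.

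Motifs were looked for in the same 300 bases on both strands. The MYB forms CNGTTG and GCNGTT are named for MYB proteins, of which MYBL1 (A-MYB) is known to drive many genes at pachynema. CNGTTG was in 33.1% of all promoters and in 9 of the 20 testis-restricted ones, and GCNGTT in 34.6% and 6. TGACG, the core of the cyclic AMP response element, was in 23.4% and 1, and GTTGCC in 11.96% and 2. A stretch such as GCNGTTG matches both MYB forms, so these counts are not independent.

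Among the several-exon testis genes, Adam2 and Adam32 had both MYB forms, Adam18 had CNGTTG, Adam5 had GCNGTT and Adam3 had TGACG without either. Of the single-coding-exon genes, Adam1a, Adam4, Adam21, Adam29, Adam30 and Adam34 had none of the 4 motifs. Among those with a match, Adam39 had GCNGTT and the Adam26 pair had CNGTTG and GTTGCC. With motifs present in this many of all promoters, matches of this kind are a description of the sequence and not of binding. RefSeq promoters were at hand for 17 of the 33 genes, and there was no entry for Adam2, Adam3, Adam4, Adam5, Adam7, Adam9, Adam11, Adam12, Adam18, Adam24, Adam26a, Adam28, Adam30, Adam32, Adam33 and Adam39.

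Genes whose products act on ADAM proteins or are cut by them were counted from lists drawn from general knowledge. Of 16 partners and inhibitors of the sheddases, 14, 14 and 11 were called, beside 60.7%, 61.2% and 52.3% of all genes. Rhbdf2 (iRhom2), which escorts ADAM17 to the cell surface, had a score of 1.42 in leptonema/zygonema, then 1.19 in pachynema and 0.770 in diplonema, at rank percentiles 99.3, 74.6 and 42.4. Tspan14 and Tspan33, tetraspanins that bind ADAM10, had their highest scores in pachynema and leptonema/zygonema, at 1.28 and 1.27. Frmd8, which stabilises iRhoms, the inhibitor Timp4 and the convertase Pcsk6 were called in the first 2 substages and not in diplonema. Rhbdf1 and Tspan10 had no call.

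The genes for the maturation of sperm ADAM proteins stood higher. Of 13, 12, 12 and 11 were called, beside the same shares of all genes, at a median rank percentile of 82.0, 88.9 and 90.5. Pdilt, a testis chaperone needed for ADAM3 to reach the sperm surface, had scores of 1.34, 1.36 and 1.22. Tex101 and Lypd4, sperm proteins also needed for ADAM3, had 1.35 and 1.30 in pachynema. In leptonema/zygonema, where Adam3 had no peak on its start, Pdilt and Tex101 stood at rank percentiles 95.1 and 80.01. Ly6k was called in leptonema/zygonema only, Ace in leptonema/zygonema and pachynema, and Rnase10 in pachynema and diplonema with scores of 0.333 and 0.370.

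Of 22 substrates of the sheddases, 15, 15 and 12 were called. Notch2 had the highest scores, at 1.34, 1.32 and 1.16, followed in pachynema by Prnp with 1.21 and Il6ra with 1.06. Hbegf was called in leptonema/zygonema and pachynema, Tnf and Cdh1 in leptonema/zygonema only, and Btc and Dll1 in pachynema only. Areg, Ereg, Epgn and Notch3 were among those without a call in any list. The counts were close to those of all genes, and no count of a list here carries a test.

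Markers of the cells in the fractions were counted beside these results. All 8 early prophase markers were called in leptonema/zygonema and pachynema and 7 in diplonema, where Stra8 was not. All 8 pachytene markers were called in each list. Spermatid markers counted 7 of 8 in each list, with Tnp2 never called and Acrv1, Spaca1 and Izumo1 scoring 1.32, 1.32 and 1.31 in leptonema/zygonema. The median rank percentile of spermatid markers was 41.6, 43.1 and 64.7, that of early prophase markers 58.4, 77.9 and 95.6 and that of pachytene markers 76.4, 79.6 and 84.4, all highest in diplonema, as with the several-exon ADAM genes. Among the early prophase markers Dmc1 had 58.0 and 18.1 and Spo11 58.6 and 53.8 in the first and last list. The spermatid markers did not move as 1 group. Between leptonema/zygonema and diplonema Tnp1 went from rank percentile 41.6 to 73.8, Prm1 and Prm2, with the same scores in each list, from 19.4 to 39.9 and Gapdhs from 36.3 to 40.6, while Acrv1 went from 92.9 to 66.5, Izumo1 from 92.3 to 64.7 and Spaca1 from 93.3 to 89.3. The part that residual spermatids have in the ADAM values was not tested. Spermatogonial markers counted 5, 5 and 4 of 8, at median rank percentiles of 48.3, 46.5 and 19.2. Their median rank was lowest in diplonema, as was that of the single-coding-exon ADAM genes, and the part that residual spermatogonia have in those values was not tested. Kit and Dmrt1 had rank percentiles of 48.3 and 52.9 in leptonema/zygonema and 4.85 and 3.89 in diplonema, Sall4 had 51.0 and no call, Uchl1 had 46.2 and 42.7, and Zbtb16 had 30.1 and 33.5. Sertoli and peritubular markers counted 3, 4 and 4 of 7, with Gata4 highest at 0.946, and Amh, Acta2 and Myh11 had no call. Markers of Leydig cells, vessels and macrophages counted 0, 1 and 0 of 8, the 1 being Cyp11a1 with 0.414.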

How the data were processed

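The authors removed duplicate leChRO-seq reads by molecular identifier with PRINSEQ lite, trimmed with cutadapt, mapped with BWA to the mm10 genome plus ribosomal DNA and called peaks with dREG, whose version is not given in the sources used here. That each list merges the 4 libraries of a substage was taken from its name. The score and the p-value (at most 0.05) of each peak are as deposited by the authors. The lists give no read counts. The study states a depth range over all assays and, for each leChRO-seq library, a normalization factor. That factor combines library size with the relative transcriptional activity of the substage. The depth behind each list was not established.

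The members and lists were chosen with earlier results of these data known. Peaks were assigned to all GENCODE M21 transcript starts within 1000 bp and genes ranked by highest score with Python 3.11.15, numpy 2.4.6 and pandas 2.3.3. The distance, call and rank steps were tested on simulated data. Every ADAM gene was accounted for. The rule for other lists was to name the 3 genes with the highest pachynema score and genes whose call differed between substages. It was applied to the partner, maturation, substrate, spermatid and spermatogonial lists. It was not followed for early prophase, pachytene, and Sertoli and peritubular markers. Genes without a call in any list, Tnp1, Prm1, Prm2, Gapdhs, Dmc1, Spo11 and Zbtb16 were named after their values were seen. Promoter windows came from GRCm38.p6. A planned search of protein sequences was not run. Alternatives were another distance, score, p-value, list length, start definition and sum of scores.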

Additional observations from a re-analysis of the deposited data

How the results depend on the processing

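Of 89 values recomputed under alternatives, 86 were within 1.5 times the value given and 3 were not. Most were counts of called genes, and the broadly used count was 3 under every change of peaks, distance or starts. The rank differences of the gene structure groups were not among the 89. With summed scores their medians were -7.60 in place of -24.5 points (single coding exon) and 50.7 in place of 77.8 (several coding exons). Counting all members outside the testis-restricted group as broadly used gave 8 called genes in pachynema in place of 3. Summing the scores of all peaks near a start gave the called testis-restricted genes a median rank percentile of 26.96 in place of 51.4 in leptonema/zygonema and 24.8 in place of 39.9 in diplonema. An alternative chosen after seeing the data left out Adam1a and gave 38.5, 44.4 and 41.1 in the 3 lists in order of substage. With each list reduced to its 38603 highest-scoring peaks, 7 calls were lost in leptonema/zygonema and 5 in pachynema, which leaves 21, 23 and 24 of the family and 15, 18 and 19 of the testis-restricted genes. Those lost in leptonema/zygonema were Adam1b, Adam3, Adam12, Adam22, Adam23, Adam30 and Adam34. A limit of 500 bp removed Adam3, Adam8 and Adam22 from leptonema/zygonema and Adam8 from pachynema. No paired analysis was possible because each list merges the libraries of a substage, which also means that leaving out single libraries was not possible.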
